A study of Rattus norvegicus with 12 samples.

Results

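The CCN family was analysed in primary rat atrial fibroblasts, cells that make the collagen matrix of the atrial wall. The 6 genes, Ccn1 to Ccn6, were chosen by name from the 22850 features of the deposited tables. The family was proposed with earlier results of these data known, so the adjusted p-values below, all taken over every gene tested, describe the fits and are not an independent test of the choice. The cells were isolated by differential adhesion from the atria of Sprague-Dawley rats 1 to 3 days old, which leaves fibroblasts enriched but unsorted. All 3 groups received angiotensin II (AngII, 1 μmol/L) for 48 h in medium with 2% FBS, and each group had 4 libraries. The AngII group received AngII alone. The AngII+HNG group received, 1 h earlier, 10 μmol/L of HNG, (Gly14)-Humanin, a synthetic analogue of the mitochondrial peptide humanin. The AngII+MOTS-c group received 5 μmol/L of MOTS-c, another peptide encoded in mitochondrial DNA, at the same lead time. The comparisons ask how AngII-treated cells differ when a peptide is added. The doses of the peptides differ, and cells without AngII, with or without a peptide, were not analysed here. The effect of AngII itself was thus not measured, and a change of that effect cannot be told apart from an effect of the peptide alone. The labels do not say what the replicate numbers mark, so p-values measure the spread between these libraries. Replicates 2 and 3 of each group carry the same number, 3, in the library names, and the labels do not say whether they came from separate cultures, although the study calls its replicates biological. With these replicates summed, leaving 3 samples per group, 4 members passed in each comparison of HNG and 0 in that of MOTS-c. Over all genes tested in these fits, 577 of 14617 passed for HNG against AngII and 430 of 14531 for HNG against MOTS-c. For MOTS-c against AngII, 0 of 14586 passed.

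CCN proteins are secreted matricellular proteins, which sit in the extracellular matrix and tune how cells respond to it rather than bearing load. They are built from an insulin-like growth factor binding protein (IGFBP) module, a von Willebrand factor type C module, a thrombospondin type 1 module and a cysteine-rich carboxy-terminal module, and CCN5 lacks the last of these. CCN1 (CYR61) and CCN2 (CTGF, connective tissue growth factor) are classic targets of the YAP and TAZ coactivators with TEAD factors, and CCN2 is also a widely used marker of TGF-β activity in fibrosis. CCN3 (NOV) and CCN5 (WISP2) are often described as opposing CCN2. CCN4 (WISP1) was found as a Wnt-induced gene and is linked to fibroblast proliferation, and CCN6 (WISP3) is known mainly from skeletal growth.

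The promoters of Ccn1 and Ccn2 are shown because the binding motif of TEAD factors, GGAATG, lies in both. Promoter windows of 250 bases before the start were taken from RefSeq (build GRCr8), in which 3 of the 6 members were matched, Ccn1, Ccn2 and Ccn6. Ccn3, Ccn4 and Ccn5 were not among the matched genes. The Ccn1 window is chr2:237225690-237225939 and the Ccn2 window is chr1:22624615-22624864, both on the minus strand and written 5′ to 3′ toward the gene. Capitals mark GGAATG or, on the opposite strand, CATTCC.
Ccn1: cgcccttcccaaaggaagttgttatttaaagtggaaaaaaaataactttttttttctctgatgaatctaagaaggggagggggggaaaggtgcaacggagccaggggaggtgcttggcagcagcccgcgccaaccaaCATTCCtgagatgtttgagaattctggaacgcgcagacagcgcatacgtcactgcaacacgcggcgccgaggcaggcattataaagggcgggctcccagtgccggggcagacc
Ccn2: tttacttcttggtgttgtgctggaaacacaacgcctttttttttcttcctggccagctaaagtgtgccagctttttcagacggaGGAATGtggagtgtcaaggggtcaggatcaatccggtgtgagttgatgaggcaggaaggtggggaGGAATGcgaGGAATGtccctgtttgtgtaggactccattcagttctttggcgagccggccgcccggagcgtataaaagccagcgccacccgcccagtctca
The Ccn2 window held 3 matches, whose first bases lay 166, 101 and 92 bases before the start. The Ccn1 window held 1 match, 113 bases before the start on the opposite strand, and the Ccn6 window held 0. Among 33469 promoters of the same length, 12.1% held at least 1 match on either strand, and 27 promoters, or 0.0807%, held at least 3. A TATA motif (TATAAA) began 34 bases before the start of Ccn1 and 31 before that of Ccn2, and was present in 12.9% of promoters. The letters CAGACA, a SMAD motif, were found 80 bases before the start of Ccn1 and in 17.2% of promoters. Neither window held the AP-1 motif TGAGTCA, present in 4.05% of promoters, nor a CArG box, the motif of serum response factor, present in 1.5%. No motif overlapped another in these windows. All 5 motifs were searched on both strands, and a match is a description of the letters only.

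The libraries held 27960586 to 38322354 counts, with a TMM scaling factor of 0.989 to 1.01. Levels are given as CPM, which relate a count to the scaled total of its library, when a gene is compared between libraries, and as the deposited FPKM, which also divide by length, when genes are compared with each other. A count of 3, the limit that a count of 0 allows, corresponded to 0.0787 to 0.106 CPM, and this limit covers counting error only.

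CCN mRNA was dominated by Ccn2. Its mean was 1090 FPKM ± 69.3 (SD, n = 4) in AngII, and it ranked between 34 and 59 among all features in the 12 libraries. Ccn5 followed with 339.0 FPKM, then Ccn3 with 255.3 FPKM and Ccn1 with 190.2 FPKM, each a mean over the 4 AngII libraries. Ccn4 was far lower, with a mean of 12.6 FPKM in AngII and ranks of 4891 to 7259. The order Ccn2, Ccn5, Ccn3, Ccn1, Ccn4, Ccn6 was the same in each treatment, and no neighbours in this order had overlapping FPKM ranges within a treatment. Ccn6 was practically not detected, with 2 counts in AngII replicate 2 (0.0571 CPM) and 0 in each of the other 11 libraries. It was below the floor everywhere, did not pass the filter on low counts and was not tested.

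**Figure D1:**
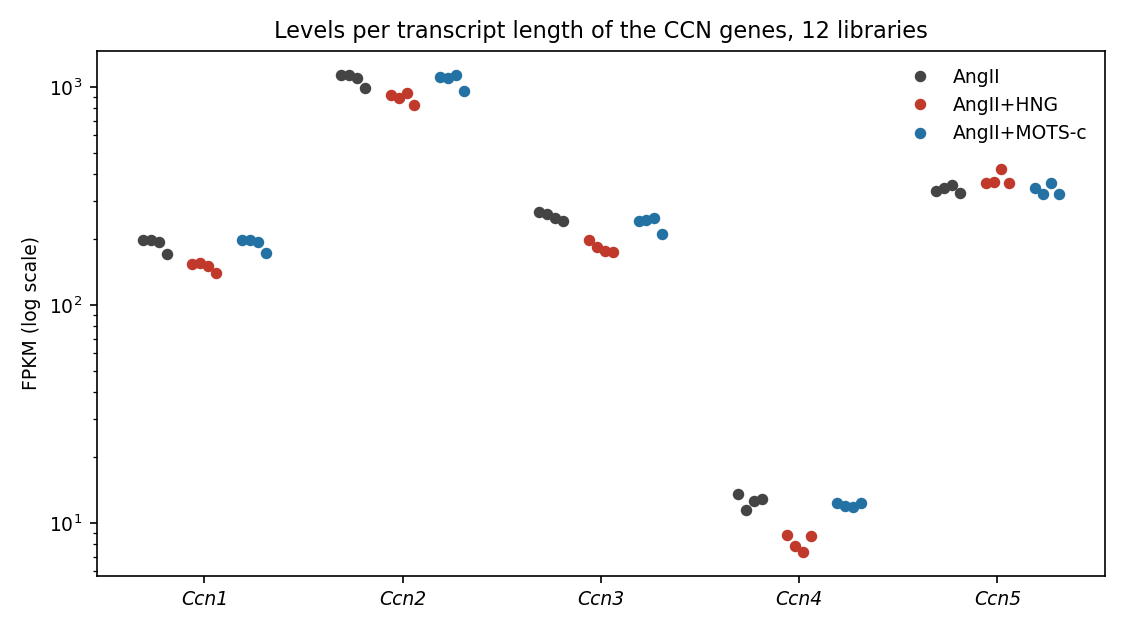
FPKM of the 5 detected CCN genes on a log axis, 1 point per library, 4 libraries for each of AngII, AngII+HNG and AngII+MOTS-c. Ccn2 lies between 823 and 1139 FPKM and Ccn4 near 10 FPKM, while Ccn5, Ccn3 and Ccn1 lie between them in that order.

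With HNG added to AngII, 4 of the 5 tested members fell and Ccn5 did not. Ccn1, Ccn2, Ccn3 and Ccn4 were lower in every HNG library than in any AngII library, and passed edgeR's quasi-likelihood test at an adjusted p-value below 0.05. In the fit Ccn2 fell by 19.1%, Ccn1 fell by 22.0%, Ccn3 fell by 29.0% and Ccn4 fell by 36.0%. Over all 14524 genes tested, 5.98% passed in either direction and 2.58% were lower. Groups that did not overlap in CPM, with HNG lower, were seen for 6.82% of all genes, and with HNG higher for 6.87%. The median log2 fold change was -0.36 over the 5 tested members and 0.0043 over all genes tested.

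Ccn2, the most abundant member, measured 2801, 2778, 2703 and 2447 CPM in the AngII libraries of replicates 1 to 4. In AngII+HNG it measured 2228, 2158, 2273 and 1988 CPM. The highest HNG library thus stayed below the lowest AngII library. The log2 fold change was -0.31 (SE 0.052, 95% interval -0.42 to -0.19, adjusted p = 0.00454).

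Ccn1, which like Ccn2 is induced quickly by serum and by stretch, measured 413.1, 413.5, 404.5 and 360.8 CPM in AngII. In AngII+HNG it measured 318.5, 322.9, 310.1 and 286.8 CPM. These groups did not overlap either. The log2 fold change of Ccn1 was -0.36 (SE 0.052, 95% interval -0.47 to -0.25, adjusted p = 0.00176).

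Ccn3 measured 407.9, 399.0, 381.3 and 373.5 CPM in AngII and was the second member by proportional decrease. In AngII+HNG its values were 301.0, 277.1, 264.6 and 263.0 CPM. The gap between the groups was wider than the range within either one. Its log2 fold change was -0.49 (SE 0.048, 95% interval -0.60 to -0.39, adjusted p = 1.5e-04), and its p-value ranked 16 among all genes tested.

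Ccn4 was the least abundant of the tested members and had the largest proportional decrease among them. It measured 72.8, 61.8, 67.3 and 70.5 CPM in AngII. In AngII+HNG it measured 46.6, 42.0, 38.7 and 46.7 CPM. Every HNG library lay under every AngII library, and the log2 fold change was -0.64 (SE 0.068, 95% interval -0.79 to -0.50, adjusted p = 2.6e-04).

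Ccn5, the member without the carboxy-terminal module, measured 613.8, 634.8, 653.3 and 610.8 CPM in AngII. In AngII+HNG it measured 665.2, 667.5, 764.5 and 658.4 CPM. The groups did not overlap, with HNG above AngII, but the difference did not pass the threshold: the log2 fold change was 0.14 (SE 0.051, 95% interval 0.029 to 0.25, adjusted p = 0.142). Replicate 3 of AngII+HNG stood above the other 3, and without it the log2 fold change was 0.083 (adjusted p = 0.189, within a range of 0.0448 to 0.325 over 19 alternatives).

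**Figure D2:**
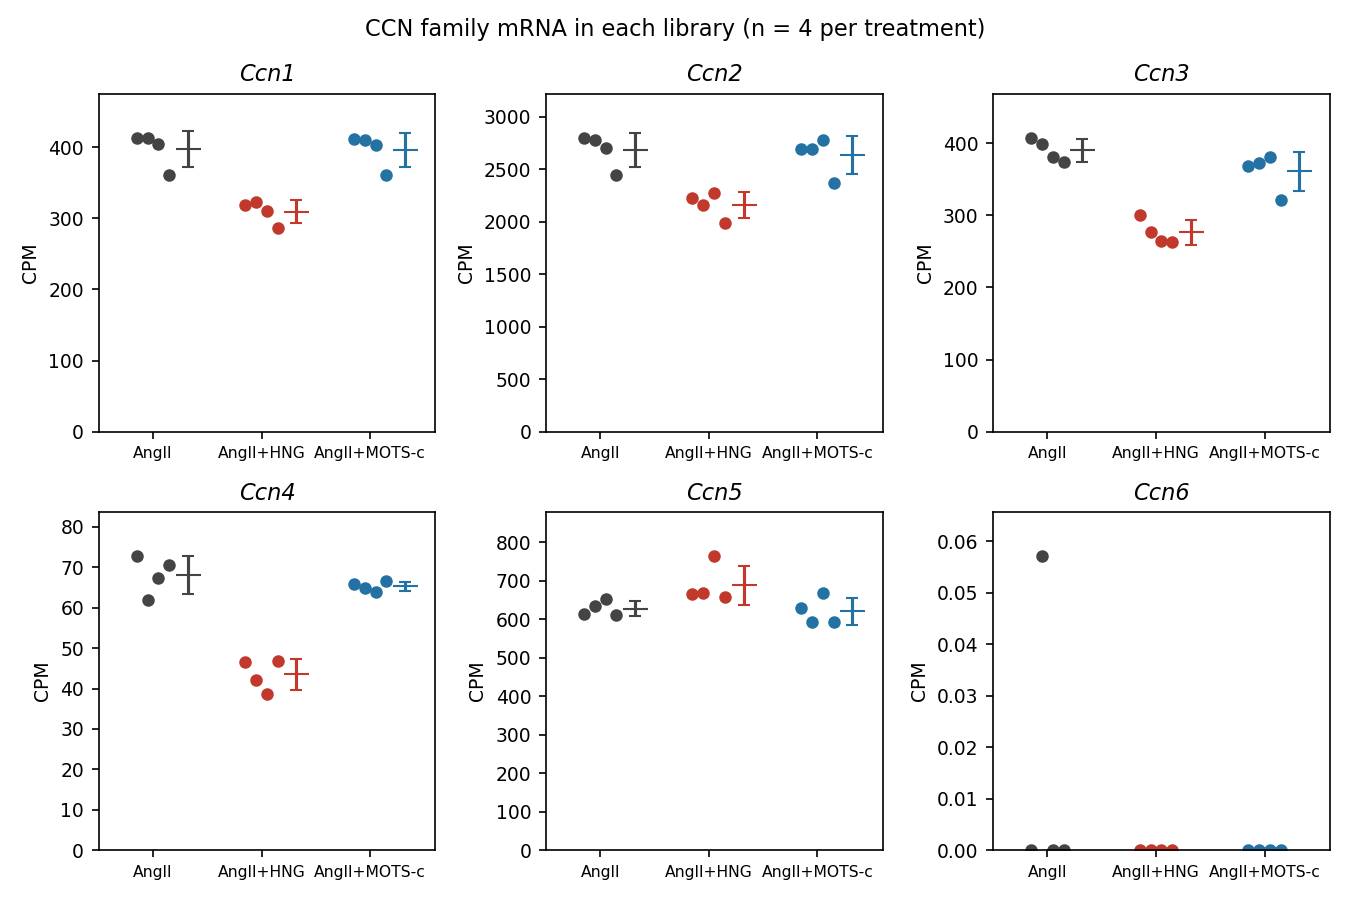
CPM of Ccn1 to Ccn6 in each of the 12 libraries, with replicates 1 to 4 from left to right and, beside them, the mean and SD of each treatment (n = 4, not drawn for Ccn6), each panel with its own linear axis from 0. The 4 AngII+HNG points lie below all AngII points for Ccn1, Ccn2, Ccn3 and Ccn4, and above them for Ccn5.

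With MOTS-c added to AngII, 0 of the 5 tested members passed the edgeR test, and 4 of the 5 had an unadjusted p-value above 0.05. Over all 14488 genes tested, 1 gene passed, or 0.00690%, and 732 had an unadjusted p-value below 0.05. All 5 members had overlapping groups. DESeq2 also called 0 of them, and 4 of the 18075 genes it tested.

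Ccn2 measured 2697, 2689, 2779 and 2366 CPM in AngII+MOTS-c, a spread much like that of AngII alone, and its log2 fold change was -0.025 with a 95% interval of -0.14 to 0.089. Ccn1 measured 411.4, 409.9, 402.5 and 360.6 CPM, and its log2 fold change was -0.0049 (95% interval -0.11 to 0.10). For both genes the lower end of the interval is a smaller decrease than the one fitted for HNG. Ccn4 measured 65.9, 64.8, 64.0 and 66.6 CPM, with a log2 fold change of -0.059 (95% interval -0.16 to 0.041). Ccn5 measured 629.3, 593.8, 667.5 and 594.5 CPM, with a log2 fold change of -0.014 (95% interval -0.10 to 0.074).

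Ccn3 was the 1 member whose interval did not include 0. It measured 369.0, 372.2, 381.3 and 321.5 CPM in AngII+MOTS-c against 373.5 to 407.9 in AngII, so the groups overlapped. The log2 fold change was -0.11 (95% interval -0.22 to -0.0048), with an adjusted p = 0.924 over all genes.

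The peptide groups were also compared directly, with the reservation that the dose of HNG was 10 μmol/L and that of MOTS-c 5 μmol/L. This comparison shares its HNG libraries with the comparison of HNG and AngII, so the agreement between them is not a second observation. Ccn1, Ccn2, Ccn3 and Ccn4 were lower with HNG than with MOTS-c at an adjusted p-value below 0.05, and their groups did not overlap. Of all 14448 genes tested, 1.77% passed with HNG lower, and 6.24% had groups that did not overlap with HNG lower. The log2 fold change was -0.59 for Ccn4 (SE 0.060, adjusted p = 3.1e-04) and -0.38 for Ccn3 (SE 0.059, adjusted p = 0.00313). It was -0.36 for Ccn1 (SE 0.052, adjusted p = 0.00250) and -0.28 for Ccn2 (SE 0.056, adjusted p = 0.0124). The call for Ccn2 was lost when FPKM were tested with limma, at an adjusted p = 0.064 with a pseudocount of 1, within a range of 4.86e-05 to 0.064 over its 19 alternatives. Ccn5 had a log2 fold change of 0.15 (SE 0.056, adjusted p = 0.165) and its groups overlapped. Without AngII+HNG replicate 3 that value was 0.094 (adjusted p = 0.283, within a range of 0.0246 to 0.389 over 19 alternatives).

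**Figure D3:**
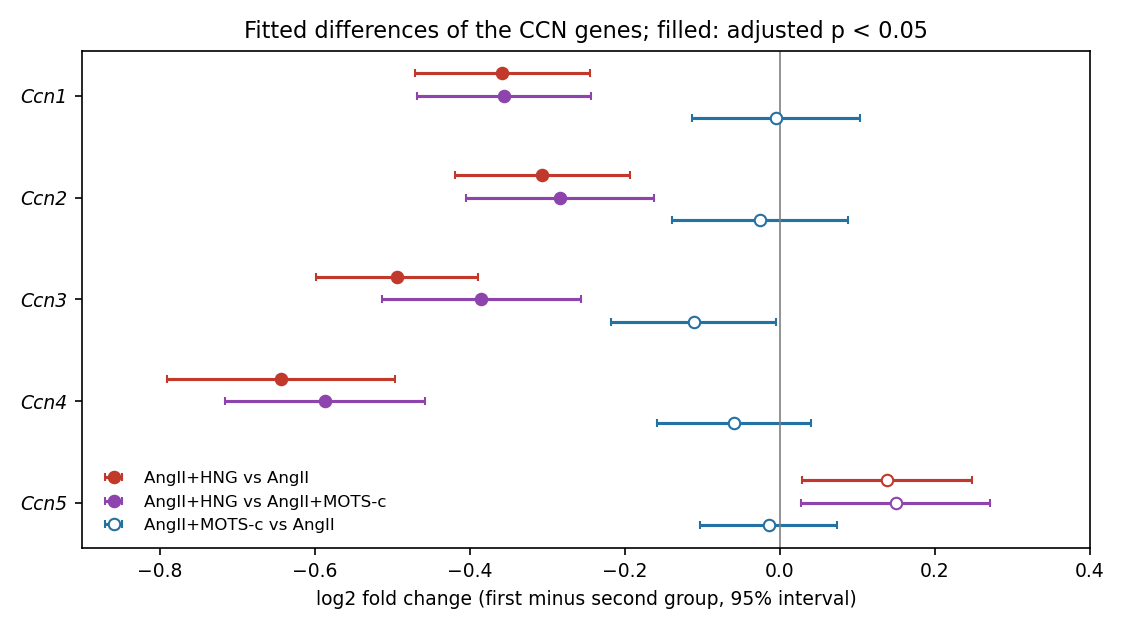
Fitted log2 fold change of the 5 tested CCN genes in the 3 comparisons, with 95% intervals, where filled points have an adjusted p-value below 0.05. Ccn1 to Ccn4 lie between -0.64 and -0.28 in both comparisons of HNG, whereas the MOTS-c comparison lies between -0.11 and 0 for all 5 genes.

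The total and the make-up of the family's mRNA are described here without a test. The summed FPKM of the 6 genes was 1887 ± 96.8 (SD, n = 4) in AngII, 1612 ± 80.0 in AngII+HNG and 1855 ± 121 in AngII+MOTS-c. Between AngII and AngII+HNG this sum decreased by 274.6 FPKM. The mean of Ccn2 alone decreased by 197.4 FPKM, that of Ccn3 decreased by 71.7, that of Ccn1 decreased by 39.9 and that of Ccn4 decreased by 4.42, while the mean of Ccn5 was 38.7 FPKM higher. The member with the largest proportional decrease thus contributed little to the total, and Ccn2, with the smallest proportional decrease of the 4, contributed most.

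The ratio of Ccn5 to Ccn2 in FPKM, computed within each library, ranged from 0.291 to 0.332 in AngII, from 0.293 to 0.334 in AngII+MOTS-c and from 0.397 to 0.447 in AngII+HNG. The ratio of Ccn5 to Ccn3 ranged from 1.24 to 1.41 in AngII, from 1.32 to 1.53 in AngII+MOTS-c and from 1.82 to 2.38 in AngII+HNG. Both ratios were thus higher in each HNG library than in any other library. The share of Ccn5 in the family's FPKM was 18.0% ± 0.813 (SD, n = 4) in AngII, 18.2% ± 0.824 in AngII+MOTS-c and 23.4% ± 1.19 in AngII+HNG. The ratio of Ccn1 to Ccn2, in contrast, ranged from 0.173 to 0.176 in AngII, from 0.160 to 0.176 in AngII+HNG and from 0.170 to 0.179 in AngII+MOTS-c, and these ranges overlapped. A ratio within a library shows unequal change and not which gene moved, and these ratios use the values that the comparisons above already gave.

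**Figure D4:**
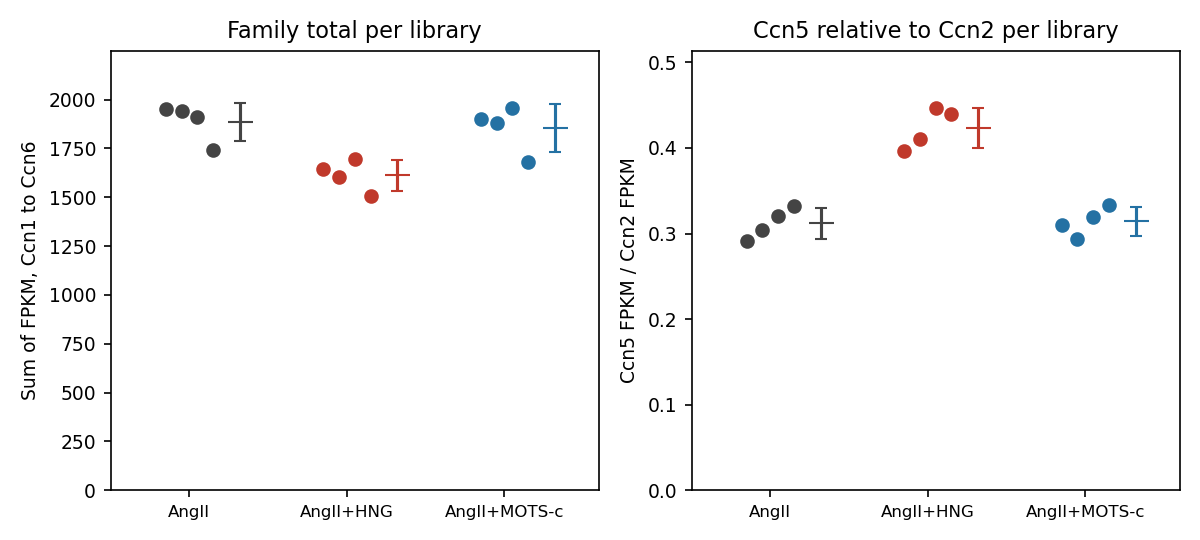
Summed FPKM of the CCN genes (left) and FPKM of Ccn5 divided by that of Ccn2 (right) in each library, with mean and SD (n = 4 per treatment) and linear axes from 0. The AngII+HNG libraries have sums of 1508 to 1697 against 1744 to 1950 in AngII, and ratios of 0.397 to 0.447 that lie above all other libraries.

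Within treatments, replicate 4 was the lowest library of each of the 3 treatments for Ccn1, Ccn2 and Ccn3. For Ccn1 it measured 360.8, 286.8 and 360.6 CPM in AngII, AngII+HNG and AngII+MOTS-c, against at least 404.5, 310.1 and 402.5 CPM in the other 3 libraries of each. For Ccn3 the margin was small in 2 treatments, with 263.0 CPM in replicate 4 of AngII+HNG against 264.6 in the next library and 373.5 against 381.3 in AngII. Ccn5 was lowest in replicate 4 in AngII and AngII+HNG but not in AngII+MOTS-c. None of these replicate 4 values was far enough from the others to pass Dixon's test, although Ccn1 in AngII and in AngII+MOTS-c lay just under its critical value. Ccn4 did not share this pattern: replicate 4 was its highest library in AngII+HNG and AngII+MOTS-c and lay between the others in AngII. In the fit without the libraries numbered 4, the same number of members, 4 of 5, was called in each comparison of HNG, and 0 for MOTS-c. Over all genes tested, that fit called 541 of 14490 for HNG against AngII and 377 of 14450 for HNG against MOTS-c. For MOTS-c against AngII it called 0 of 14517.

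Once the mean of each treatment was removed, Ccn1 and Ccn2 varied together over the 12 libraries, with Pearson's r of 0.91 in log2 CPM, Spearman's rho of 0.36 and r of 0.76 without the 2 libraries farthest from the median. The low replicate 4 libraries of both genes are among these points, and rho is well below r. Ccn3 had r of 0.78 with Ccn1 (rho 0.56, r 0.62 without the 2 farthest libraries). With Ccn2 it had r of 0.77 (rho 0.70, r 0.55 without the 2 farthest libraries). Ccn4, in contrast, had r of 0.094 with Ccn3, -0.33 with Ccn1 and -0.43 with Ccn2. Ccn5 had r of -0.68 with Ccn4 (rho -0.59) and of 0.57 with Ccn2 (rho 0.64, r 0.53 without the 2 farthest libraries). So Ccn3 and Ccn4, which had the largest decreases with HNG, hardly varied together within treatments. The points share their libraries and replicate numbers, and these values are descriptions.

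Among 12196 genes, those most like each called member in this within-treatment variation were named by the same measure. For Ccn1 they were Fzd4 (r 0.97), a Frizzled receptor of Wnt and norrin signals, Ramp1, Emp1, Amotl2 and Plekha7, and Ccn2 ranked 30. For Ccn2 they were Stc2 (r 0.97), Mycn, Zyx, Adamts20 and Fscn1, and Ccn1 ranked 25. For Ccn3 they were Inhba (r 0.93), which encodes the activin A subunit, Cited2, Tstd3, Serpinb6b and Scnn1a. For Ccn4 they were Washc4 (r 0.97), Snx13, Kdm5b, Xrn1 and Tnks. Of these 20 genes, Fzd4, Inhba and Cited2 passed the test with HNG against AngII, each lower, with log2 fold changes of -0.26, -0.35 and -0.34. The other 17 did not pass. Only Pearson's r was used to name these genes. For Ccn1, Ccn2 and Ccn3 the points include the low replicate 4 libraries, whose part in these values was not tested.

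Genes of the pathways around the family were examined as lists. Over all 14524 genes tested with HNG against AngII, 5.98% passed in either direction and 2.58% were lower. Of 20 other YAP/TEAD target genes, 2 fell with HNG against AngII and 1 rose, and the median log2 fold change was -0.098. Tgfb2, a TGF-β ligand, measured 187.8 CPM on average with HNG and 245.7 in AngII (log2 fold change -0.38, SE 0.054, adjusted p = 0.00148). Crim1, a transmembrane protein with an IGFBP module, fell by 0.31 on the log2 scale (adjusted p = 0.00519), and Nt5e, the ectonucleotidase CD73, rose by 0.22 (adjusted p = 0.0271). The commonly used targets Ankrd1 and Amotl2 had log2 fold changes of -0.10 (adjusted p = 0.300) and -0.021 (adjusted p = 0.849). DESeq2 called 5 of the 20 lower. In the edgeR fit the other 17 genes of this list did not pass. Of 18 genes of YAP, TAZ, TEAD and Hippo proteins, 1 passed, Vgll3, a TEAD cofactor, with a log2 fold change of -0.33 (adjusted p = 0.00648). A count of 1 in 18 is near the share over all genes.

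The list with the most calls was that of SRF/MRTF target genes, which encode much of the contractile cytoskeleton. Of 21 genes, 16 fell with HNG and 0 rose, with a median log2 fold change of -0.21. Of all genes tested, 2.58% were lower. Calponin (Cnn1) measured 109.9 ± 3.71 CPM with HNG and 147.0 ± 3.27 in AngII, a log2 fold change of -0.41 (adjusted p = 1.3e-04). Leiomodin (Lmod1) had a log2 fold change of -0.37 and transgelin (Tagln) of -0.32, each with an adjusted p-value below 0.05. The count was 10 when FPKM were tested with limma, and it was 14 without the libraries numbered 4. Lmod1 is also in the list of smooth muscle and pericyte markers, of which 3 of 7 fell with HNG, the others being Myh11 (log2 fold change -0.34) and Notch3 (-0.38). The summed level of those markers was 864.2 to 983.8 CPM in AngII+HNG and 1027 to 1127 CPM in AngII, and their part in the SRF/MRTF result was not tested.

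Of 13 TGF-β/SMAD target genes, 3 fell and 1 rose with HNG. Tagln, given above, is also in this list. Tgfbi, a secreted adhesion protein, rose by 0.47 (adjusted p = 0.00210). The list's median was -0.046. Of 10 tested Wnt/β-catenin target genes, from a list of 14, only cyclin D1 (Ccnd1) passed. It rose by 0.56 (adjusted p = 4.6e-04), while Ccn4, itself described as a Wnt target, fell. With 10 genes tested, 1 call is close to the 5.98% of all genes that passed in either direction.

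Receptors and binding partners of CCN proteins include integrins, LRP1 and syndecans. Of 18 tested, 3 fell and 2 rose with HNG. The laminin-binding integrin subunit Itga6 had a log2 fold change of -0.25 (adjusted p = 0.00482), and Itgb1, the shared β1 subunit, of -0.20 (adjusted p = 0.00853). Itgb2, the leukocyte integrin subunit, was higher by 0.51 (adjusted p = 0.00543). Of 10 tested genes of other proteins with an IGFBP module, 1 passed, Crim1, lower. The list's median was 0.096, opposite in sign to the median of the CCN family. Over all genes tested, 5.98% passed in either direction, and 1 call in 10 genes is close to that share.

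**Figure D5:**
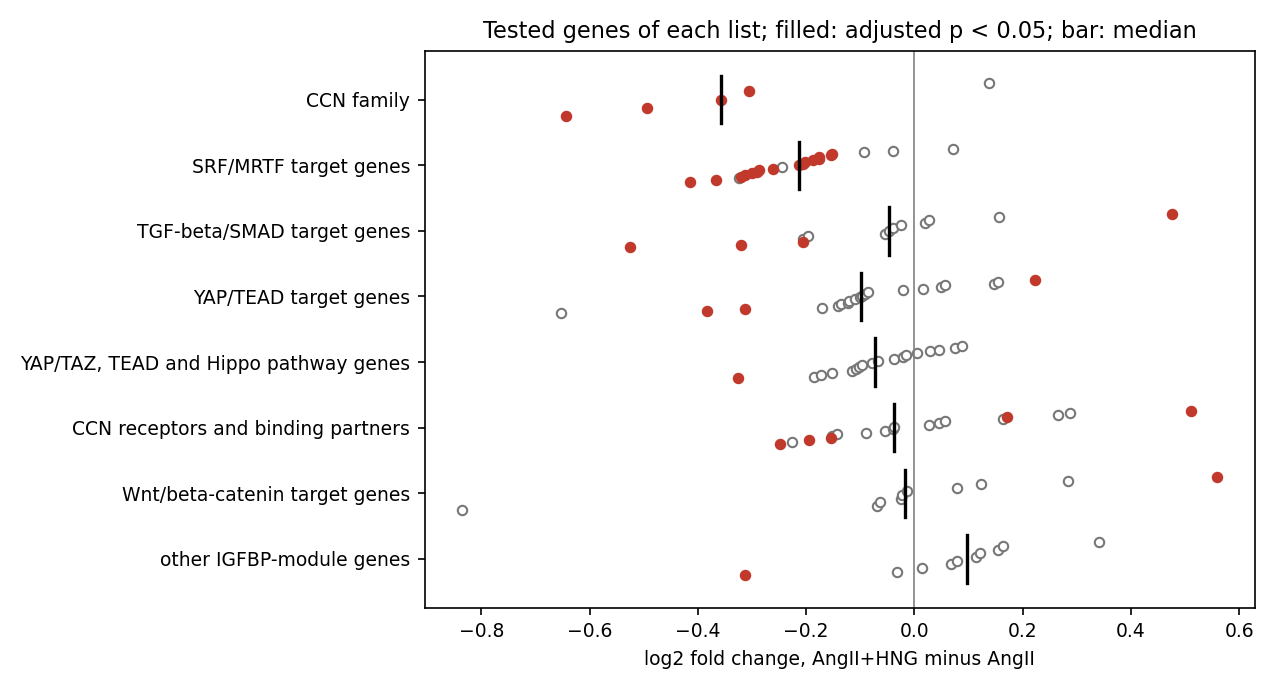
Log2 fold change of AngII+HNG minus AngII for the tested genes of the CCN family and of 7 related lists, 1 point per gene, where filled points have an adjusted p-value below 0.05 and bars are list medians. The CCN family has a median of -0.36 and the SRF/MRTF list one of -0.21, while the other lists have medians between -0.098 and 0.096.

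With MOTS-c against AngII, 0 genes passed in any of these 7 lists, whose medians lay between -0.061 and 0.030. Over all 14488 genes tested there, 1 passed. Between the peptides, 637 of all 14448 genes tested passed in either direction, and 1.77% passed with HNG lower. HNG against MOTS-c, with the difference in dose named above, gave 9 of 21 SRF/MRTF genes lower, among which Lmod1 had the largest fold change (log2 fold change -0.29, adjusted p = 0.00730). The count was 5 without the libraries numbered 4 and 14 with DESeq2. In that comparison 3 of 20 YAP/TEAD target genes were lower, Tgfb2 (-0.38), Crim1 (-0.28) and Ptpn14 (-0.19) on the log2 scale. This count was 6 with DESeq2 and 1 when FPKM were tested with limma. The Hippo list again gave 1, Vgll3 (-0.37). Tgfbi (0.44), Ccnd1 (0.68) and Itgb2 (0.53) were higher with HNG, and Itga6 (-0.24), Notch1 (-0.20) and Itgb1 (-0.16) lower.

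Marker genes of other cells were read beside these results. Of all 14524 genes tested with HNG against AngII, 5.98% passed in either direction and 2.58% were lower. All 8 fibroblast markers were detected, with a summed level of 59030 to 66329 CPM over the 12 libraries. Most of this sum was Col1a1, Col3a1 and Col1a2, with means of 26078, 20549 and 15255 CPM in AngII. The other fibroblast markers had AngII means from 114.6 (Thy1) to 225.4 CPM (Pdgfra), and cardiomyocyte markers from 110.9 (Ryr2) to 2072 CPM (Nppa). Thy1 and Tcf21, 2 of the 8 fibroblast markers, were higher with HNG than in AngII. Cardiomyocyte markers were present in every library, with 8 of 8 detected and sums of 5474 to 6248 CPM in AngII, 5812 to 6814 in AngII+HNG and 5049 to 6600 in AngII+MOTS-c. Of these, 0 of 8 passed with HNG. Smooth muscle and pericyte markers summed to 1027 to 1127 CPM in AngII, 864.2 to 983.8 in AngII+HNG and 943.3 to 1100 in AngII+MOTS-c, and 3 of 7, Myh11, Lmod1 and Notch3, fell with HNG. Macrophage markers summed to 124.1 to 152.5 CPM in AngII, 149.3 to 202.3 in AngII+HNG and 127.0 to 147.9 in AngII+MOTS-c, with Cd68, Ptprc and Mrc1 of 7 passing as higher with HNG. The macrophage markers Adgre1 and C1qb had negative log2 fold changes, -0.36 (adjusted p = 0.185) and -0.046 (adjusted p = 0.916). Endothelial markers summed to 52.0 to 58.9 CPM in AngII, 63.9 to 70.6 in AngII+HNG and 52.9 to 58.3 in AngII+MOTS-c, with Tie1 and Kdr of 7 passing as higher with HNG. The endothelial markers Erg and Emcn had negative log2 fold changes, -0.30 (adjusted p = 0.191) and -0.19 (adjusted p = 0.699). The part of these cells in the CCN differences was not tested, and in bulk RNA fewer cells of a type and less RNA per cell cannot be told apart. Epicardial and mesothelial markers (49.6 to 64.0 CPM) and Schwann cell markers (7.42 to 10.3 CPM) gave 0 calls with HNG, and the Schwann cell gene Sox10 was near 0, with a mean of 0.855 CPM in AngII.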

How the data were processed

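Bulk mRNA sequencing covered 12 libraries of primary rat atrial fibroblasts, grouped and numbered from the sample titles. The authors deposited counts of reads per gene, whole numbers without normalization. The authors also deposited FPKM of the same genes and libraries, which divide by gene length and library total. The submitters' processing notes name HISAT2, Picard 1.41 and SAMtools 0.1.18. The genome build, the counting tool and whether it used strand are not given in the sources used here, so reads of overlapping genes may be shared. Columns of other samples numbered 0.

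The tests were run with edgeR 4.0.16 under R 4.3.3 (filterByExpr, TMM, glmQLFit and glmQLFTest), each comparison on its own 8 libraries, with Benjamini-Hochberg adjustment over all genes tested and a threshold of 0.05. Standard errors come from the F statistic. The computation was tested on simulated data. Alternatives were DESeq2 1.42.0, RLE factors, other filters, all 12 libraries, replicate blocks, replicates 2 and 3 summed because they share a library name number, limma 3.58.1 on log2 of FPKM plus 1 or 0.1, and omitted libraries. Library totals of 27960586 to 38322354 set the precision.

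The members and lists were chosen with earlier results of these data known. Named genes are the members, up to 3 of the called genes with the largest change in each list, the 5 genes of highest within-treatment correlation with each called member, and marker genes near 0. Some genes that this rule names are not reported here. Among receptors and binding partners, Itga5 and Lrp1 were called but not among these 3. The SRF/MRTF list also held called genes beyond its first 3. Ankrd1, Amotl2 and the called markers were singled out with their values known.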

Additional observations from a re-analysis of the deposited data

Results flagged for a closer look

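Among the 15 groups of 4 libraries examined for a library far from the others (5 members in 3 treatments), 1 stood out. Ccn5 measured 764.5 CPM in AngII+HNG replicate 3, against 667.5 CPM in the nearest library, a gap of 0.914 of the group's range which is above the critical value of Dixon's test at 95%. Chance marks about 1 in 20 groups. Without this library the log2 fold change of Ccn5 with HNG was 0.083, against 0.14 with it, and it did not pass the threshold in either fit (adjusted p = 0.189 and adjusted p = 0.142, within a range of 0.0448 to 0.325 over 19 alternatives).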

How the results depend on the processing

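Of the members, 4 passed with HNG against AngII in 18 of 19 alternatives, and 5 with the replicate number as a block, where Ccn5 passed (log2 fold change 0.14, adjusted p = 0.0448). The corresponding counts for HNG against MOTS-c were 3 to 5, with 5 in the replicate block (Ccn5 0.15, adjusted p = 0.0246) and 3 when limma was run on FPKM (adjusted p = 0.064 and adjusted p = 0.0608 for Ccn2), and 0 for MOTS-c against AngII in all 19. Whether the replicate numbers pair the libraries was not settled. Over all genes tested, same-numbered libraries had correlations of deviations from -0.075 to 0.14 for HNG and from 2.6e-05 to 0.12 for MOTS-c. Between the peptides these ran from -0.014 to 0.21. Number 4 had the highest value in each comparison. Of 8 libraries, 2, 4 and 5 correlated best with their own number. Within the family, replicate 4 was the lowest library of each treatment for Ccn1, Ccn2 and Ccn3. Same-numbered log2 differences for HNG against AngII ranged from -0.38 to -0.33 for Ccn1, but from -0.80 to -0.56 for Ccn4. The uncalled differences of Ccn1, Ccn2 and Ccn5 with MOTS-c against AngII changed sign. Ccn1 was 0.0029 and 0.0030 in the limma fits, and between -0.050 and 0.038 when single libraries were left out. Ccn2 lay between -0.068 and 0.023 and Ccn5 between -0.051 and 0.0076 when libraries were left out.

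The count over all genes was less stable. For HNG against AngII it was 869, with 1192 by DESeq2, 1111 and 1113 with blocks by replicate number and library name number, 1035 with all 12 libraries in one fit, 577 when replicates 2 and 3 were summed, 541 without the libraries numbered 4 and 431 to 932 with single libraries left out (431, 485 and 512 without AngII replicates 1, 2 and 3). For MOTS-c it was 1, with 0 to 4 elsewhere (4 by DESeq2, 2 with the block). Between the peptides it was 637, with 1034 by DESeq2, 975 with all 12 libraries in one fit, 1054 with the block, 430 with summed replicates, 377 without the libraries numbered 4 and 322 to 625 with single libraries left out (324, 322 and 389 without AngII+MOTS-c replicates 1, 2 and 3, and 416 without AngII+HNG replicate 2). Counts of lists under the same alternatives were chosen after seeing the data: SRF/MRTF genes lower with HNG numbered 10 to 18 against AngII and 5 to 14 against MOTS-c (14 by DESeq2 and with the block), and YAP/TEAD targets 2 to 5 and 1 to 6 (6 by DESeq2 and with all 12 libraries, 5 with the block, 1 by limma). SRF/MRTF genes lower with MOTS-c against AngII numbered 1 by DESeq2 and 0 in the other 18. The causes were not tested. Depth limits Ccn6, below 3 counts in every library.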
